A study of Homo sapiens and synthetic construct with 52 samples.

Results

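A small set of sgRNAs was followed through the 8 pilot plasmid pools of the series, which holds 52 samples in all. Its members are all guides of the library that the labels call oPool_192 after their number. They were found by sequence in the list of the 752-guide library, where every one of them occurred under the same number, 25.5% of the 752, and none was shared with the 560 other guides. Each guide is 19 nt long, any pair of the set differed at 6 or more bases, and the lists used here give a number but no target for them. The 6 small pools held these guides alone, and in each of them the insert had been made double-stranded with Klenow, with Klenow exo- or with NEB Q5 Ultra II and eluted from the gel at 37 °C or at 70 °C. The 2 large pools held all 752 guides, with the insert amplified for 1 or for 15 PCR cycles. The paper's account implies Q5 for these large pools without plainly stating it. It gives the lower of the elution temperatures for its larger pilot library, but does not plainly say whether that library is either of these pools. The labels give neither the polymerase nor the elution temperature of the large pools. The pools were sequenced as plasmid DNA and never entered a cell.

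In pooled CRISPR screens the abundance of a guide in the plasmid library sets how many cells receive it, so uneven cloning carries through to the screen. Here a synthetic oligo was copied into double-stranded DNA, cut on both sides of the guide with BstXI and BlpI, gel purified as a short insert and ligated into a lentiviral vector. Klenow is the large fragment of a bacterial DNA polymerase, the exo- form lacks the proofreading nuclease, and Q5 is a heat-stable proofreading enzyme used in PCR. A short insert separates into single strands more readily when its melting temperature is low, and the elution temperature is therefore a variable of the cloning.

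The 8 guides that were low or high in every pool are shown first, because they are what the pools had in common. Capitals mark a recognition site of BlpI, GCTNAGC, which reads the same on both strands.
guide 161 (low): gggacGCTTAGCtcaggag
guide 85 (low): tgGCTGAGCtatacactag
guide 68 (low): gacggtggttacaacacgc
guide 151 (low): cttacctgaatcaatactg
guide 170 (high): aatactgttcaggtaacat
guide 132 (high): catcagaaggacctaatgc
guide 69 (high): atgctgaacgggaacgtct
guide 39 (high): tgcctgggcttcggccctg

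The guides with the largest difference between elution temperatures are shown with each cytosine in capitals, since the number of cytosines was the base count that ran most strongly with that difference. Guides 161, 85 and 170 are repeated from above in this form.
guide 85 (higher at 70 °C): tggCtgagCtataCaCtag
guide 115 (higher at 70 °C): gatttggataagattaCtg
guide 170 (higher at 70 °C): aataCtgttCaggtaaCat
guide 34 (higher at 70 °C): taaggtaggatataaaCtg
guide 181 (higher at 70 °C): attagtgCggaataagagt
guide 165 (higher at 70 °C): aatatgtaCaaatgatggg
guide 161 (lower at 70 °C): gggaCgCttagCtCaggag
guide 3 (lower at 70 °C): CatCaCCaagttCgCatgt
guide 79 (lower at 70 °C): CaCCgCagCtaaaaCaCtC
guide 58 (lower at 70 °C): CtCCaCtCaCaagatCgtg
guide 4 (lower at 70 °C): CtaCCCCaaCagCgaCatg
guide 148 (lower at 70 °C): CttaattCagCCCtCagCa

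The guides that separated Q5 from the Klenow pools are shown in lower case, because that difference ran only weakly with every sequence feature examined.
guide 30 (lower with Q5): ggtaaagctggctttcgag
guide 43 (lower with Q5): tctctggggtatcatggag
guide 126 (lower with Q5): caggcaatgaggatagggg
guide 72 (lower with Q5): tttgctgcgtattaaaggg
guide 88 (higher with Q5): catagtcagtattgaacag
guide 5 (higher with Q5): tgtgtgagatggtcaagca
guide 74 (higher with Q5): cagcggcagtgggtaccgt

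The small pools held 326978 to 1043018 reads. The 752-guide pools held 303450 reads with 15 cycles and 288327 with 1 cycle, of which the set took 56533 (18.6%, Wilson 95% interval 18.5 to 18.8) and 44606 (15.5%, 15.3 to 15.6). The median count of a guide of the set was 1580.5 to 5090.5 reads in the small pools but 261 and 213.5 in the 752-guide pools, where single guides are therefore less precise. Each pool is 1 library, so no pool has a replicate of its own condition. Intervals on counts in the text cover counting error only. Levels are given as reads and, to compare pools of different depth, as relative abundance, which is the count divided by the mean count of the set in that pool.

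A guide was called low or high in a pool when it ranked among the lowest or the highest 48 of the set, with rank 1 the lowest count. By that rule 4 guides (2.08%) were low in all 8 pools, namely guides 161, 85, 68 and 151, and 4 (2.08%) were high in all 8, namely guides 170, 132, 69 and 39. All 4 guides that were low in the 6 small pools were also low in both 752-guide pools, and 4 of the 5 guides that were high in the small pools were high in both. In the whole set, 37 guides were low and 39 high in both 752-guide pools. By a looser rule, which asks for only 1 pool or more at each end, 54 guides were low in some pools and high in others. A further 11 were never low and never high. The 54 cannot be set against the counts for all 8 pools, because the rules ask for different numbers of pools. The counts for all 8 pools rested on single pools. Without the Q5 pool eluted at 70 °C, 7 guides were low in the remaining pools. Without the Q5 pool eluted at 37 °C, 10 were high in the remaining pools.

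Guides 161 and 85 were the 2 lowest guides of the set in every pool, and they were the only 2 of the set (1.04%) and of all 752 guides (0.266%) with a BlpI site inside the guide. The site spans bases 6 to 12 of guide 161 and bases 3 to 9 of guide 85, counted from the 5′ end. None of the 752 oligos held a second site of BstXI. In the 752-guide pools the pair also ranked lowest of all 752, and the lowest of the 560 other guides had 159 reads with 15 cycles and 136 with 1 cycle. The protocol's flanking bases were used for this search, and whether the second site was cut was not tested. Guide 161 also begins with a run of guanines, which guide 85 does not. The paper reports that guides with such a start are hard to read on a sequencer that it used. Whether this bears on the counts of guide 161 was not tested.

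Guide 161 had 9, 8 and 201 reads in the Klenow, Klenow exo- and Q5 pools eluted at 37 °C. In the matching pools eluted at 70 °C it had 0, 1 and 26 reads, and it had 8 reads in each 752-guide pool. It was thus at 3.75% of the pool median or less everywhere except in the Q5 pool eluted at 37 °C, where it stood at 12.3%. There it was 8.15-fold below the median (95% Poisson interval 7.10 to 9.40), against 249-fold (131 to 544) in the Klenow pool at the same temperature. The 0 of 385482 reads in the Klenow pool eluted at 70 °C allows a share of up to 0.000778%, or at least 578-fold below the median when 3 reads are taken as the floor for that library.

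Guide 85 had 17, 23 and 30 reads in the Klenow, Klenow exo- and Q5 pools eluted at 37 °C. After elution at 70 °C it had 18, 40 and 369 reads, and the 752-guide pools gave 5 with 15 cycles and 18 with 1. Among the small pools it was least depleted in a different Q5 pool than guide 161, the one eluted at 70 °C, at 7.25% of the median, and with 1 cycle it stood at 8.43%. Its fold below the median ran from 11.9 (7.50 to 20.01) with 1 cycle to 132 (82.3 to 226) in the Klenow pool eluted at 37 °C. No other guide came near this pair, since the lowest of the other 190 stood at 16.7% to 47.6% of the median in the small pools and at 18.3% and 30.7% in the 752-guide pools.

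The other 2 guides that were low in every pool were only moderately depleted. Guide 68 had 1073, 649 and 1251 reads at 37 °C in the order Klenow, Klenow exo- and Q5, then 586, 494 and 3111 at 70 °C, and 103 and 97 in the 752-guide pools with 15 and 1 cycles. Its relative abundance ran from 0.263 in the Klenow exo- pool at 70 °C to 0.735 in the Q5 pool at 37 °C. Guide 151 had 1479, 1054 and 1209 reads at 37 °C, 668, 517 and 3189 at 70 °C, and 133 and 118 in the 752-guide pools, a relative abundance of 0.276 to 0.710. Both were nearest to the pool mean in the Q5 pool at 37 °C, the pool with the narrowest spread of counts. Guides 12 and 19 lay just outside the rule. Their worst ranks were 54 and 55.5, against 25 for guide 68 and 28 for guide 151 just inside it. Guides with under 0.5 times the median in all 8 pools numbered 2, which were 161 and 85.

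Among the high guides, guide 170 led. It had 5765, 4507 and 2684 reads at 37 °C, 7878, 7521 and 13713 at 70 °C, and 555 and 455 in the 752-guide pools with 15 and 1 cycles. Its relative abundance was 1.58 to 4.01, highest in the Klenow pools eluted at 70 °C, and it was the most abundant guide of the set in both. Guide 132 had 5304, 4373 and 2568 reads at 37 °C, 4163, 5225 and 11041 at 70 °C, and 678 and 544 in the 752-guide pools. It stayed between 1.51 and 2.79 times the pool mean. Guides 69 and 39 were just inside the rule at 1.40 to 2.12 and 1.32 to 2.43 times the pool mean, and guides 131 and 53 just outside it, with lowest ranks of 143 and 141. The high guides share no base composition, since guide 170 has a melting temperature of 42.6 °C and 31.6% GC and guide 39 one of 61.5 °C and 73.7% GC.

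The order of the guides fell into blocks of pools. The Klenow and Klenow exo- pools ranked the guides almost alike (Spearman rho over the guides of the set 0.963 at 37 °C and 0.938 at 70 °C), as did the 2 large pools (0.910). These rho values are over guides of 1 oligo design and describe the pools. Even so, the counts of the 2 Klenow enzymes differed by more than sampling noise, with a chi-square per degree of freedom of 12.1 at 37 °C and 33.7 at 70 °C.

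Both 752-guide pools ranked the set like the Klenow pools and not like the Q5 pools. The rho of the 752-guide pools with the Klenow pools was 0.784 to 0.863 at 37 °C and 0.626 to 0.688 at 70 °C. With the 2 small Q5 pools it was 0.038 to 0.104, although the paper's account implies Q5 for the 752-guide pools as well. The Q5 pool eluted at 37 °C had a rho of 0.032 to 0.120 with the 4 Klenow pools. The Q5 pool eluted at 70 °C had 0.685 with the Q5 pool at 37 °C, 0.033 to 0.081 with the Klenow pools at 37 °C and 0.414 to 0.416 with the Klenow pools at 70 °C. By the same token 17 guides were low, and 26 high, in all 4 Klenow pools and both 752-guide pools. In the 752-guide pools library size, oligo synthesis and amplification all differ from the small pools, and their parts cannot be told apart. Whether the small Q5 pools came from the same oligo order as the small Klenow pools, and whether their labels are right, was not tested, so each difference between Q5 and Klenow below is one between the pools so labelled.

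Guide 30 shows the split. It had 5785 and 4550 reads in the Klenow and Klenow exo- pools at 37 °C, 6728 and 6090 at 70 °C, 981 and 4775 in the Q5 pools at 37 °C and 70 °C, and 928 and 684 in the 752-guide pools with 15 and 1 cycles. That made it the most abundant guide of the set in 4 pools, those of Klenow and Klenow exo- at 37 °C and both 752-guide pools, and the sixth lowest in the Q5 pool at 37 °C. Guide 74 is an exception to the blocks. It had 755 and 960 reads in the Klenow and Klenow exo- pools at 37 °C, 790 and 932 at 70 °C, 2347 and 8033 in the Q5 pools, and 484 and 513 in the 752-guide pools. At 0.314 to 0.510 times the mean it was low in all 4 Klenow pools, whereas at 1.38 to 2.21 times it was high in the Q5 and in the 752-guide pools alike.

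The polymerases were compared over the 6 small pools with edgeR's quasi-likelihood test, in a model that also held the elution temperature. After Benjamini-Hochberg adjustment, 121 guides of the set (63%) differed between the 2 Q5 pools and the 4 Klenow pools. Of these 65 (33.9%) were higher and 56 (29.2%) lower with Q5. Each p-value sets the contrast against the spread of these single libraries around an additive model with 2 residual degrees of freedom. No condition was repeated, the spread was partly shared over the guides, and the 2 Klenow enzymes act as the near-replicates. Without the Klenow pool eluted at 70 °C the calls fell to 80, and without the temperature term to 40.

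Guides 30, 43, 126 and 72 fell with Q5, by 2.01, 1.99, 1.75 and 1.41 on the log2 scale, and the largest adjusted p of the 4 in edgeR's quasi-likelihood test was 1.67e-06. Guide 43 had 4560, 4453, 5435 and 5419 reads in the 4 Klenow pools, the 37 °C pools first, and 1202 and 2946 in the Q5 pools at 37 °C and 70 °C. Relative to the pool mean, it stood at 1.90 to 2.89 in the Klenow pools and at 0.542 and 0.706 in the Q5 pools. Guides 88, 5 and 74 rose with Q5, by log2 values of 1.90, 1.80 and 1.74 with adjusted p of 3.33e-08, 1.73e-06 and 2.56e-07 in the same test. Guide 88 had 996, 665, 1018 and 793 reads in the Klenow pools and 2456 and 9642 in the Q5 pools, or 0.354 to 0.507 against 1.44 and 1.78 times the mean. In the 752-guide pools guides 88 and 5 stood at 0.285 to 0.344 times the mean, just below the Klenow pools for guide 88 and just above them for guide 5. Guide 161 rose by 4.73, with an adjusted p of 3.98e-06 in edgeR's quasi-likelihood test, a fold that depends on the prior count because the guide was at 0 in a Klenow pool.

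The difference between Q5 and Klenow for each guide was much the same at either temperature. Over the set its rho between the pools at 37 °C and those at 70 °C, which share no library, was 0.898. The paper reports the same starting material for both elutions, so these are not independent preparations. The difference between Q5 and Klenow ran only weakly with the sequence features examined. Its rho with melting temperature was -0.031 at 37 °C and -0.112 at 70 °C, and with the number of cytosines -0.012 and -0.009. The largest in size was -0.179, with the GC content of the last 9 bases at 70 °C.

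The melting temperature of the 19-nt guide as a DNA duplex averaged 48.9 ± 4.58 °C over the set (SD), from 39.1 °C for guide 49 to 63.3 °C for guide 187. The eluted insert is longer, at 33 bp. Its computed value averaged 62.2 ± 2.73 °C (SD), from 56.3 to 70.1 °C. Melting temperatures in the text are those of the 19-nt guide. The relation between count and melting temperature changed sign between pools. It was positive in the 752-guide pools, with a Spearman rho of 0.380 with 1 cycle and 0.295 with 15. It was near 0 in the pools eluted at 37 °C, at 0.072 for Klenow, 0.053 for Klenow exo- and -0.042 for Q5. At 70 °C it was -0.046 for Klenow, also near 0, then -0.105 for Klenow exo- and -0.240 for Q5. All 8 values describe guides of 1 design, and leaving out the 2 guides with a BlpI site moved the 8 values to between -0.237 and 0.395.

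On the scale of degrees, the highest 48 guides of the 752-guide pool with 1 cycle had a mean melting temperature of 50.9 ± 4.70 °C, against 46.8 ± 3.77 °C for the lowest 48 (SD), 4.13 °C apart. In the Q5 pool at 70 °C the order was turned, with 47.7 ± 5.54 °C for the highest 48 and 50.3 ± 4.65 °C for the lowest. The difference, highest minus lowest, was 3.23 °C with 15 cycles, 0.548, 0.189 and -0.754 °C for Klenow, Klenow exo- and Q5 at 37 °C, and -0.583 and -1.25 °C for Klenow and Klenow exo- at 70 °C. With the 10 guides at each end in place of 48, the difference was -3.50, -0.313 and 1.84 °C for Klenow, Klenow exo- and Q5 at 37 °C and 0.015, -2.95 and -6.58 °C at 70 °C, so that it changed sign in 4 of the 6 small pools. In the 752-guide pools it was 2.64 °C with 15 cycles and 4.16 °C with 1. With 48 guides each difference is smaller than the SD of melting temperature over the set, and with 10 guides the Q5 pool at 70 °C exceeds that SD.

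The 48 guides that melted lowest, from 39.1 to 46.4 °C, differed most between pools. Their mean relative abundance was 1.21 in the Q5 pool at 70 °C, 1.11 and 1.12 in the Klenow and Klenow exo- pools at 70 °C, and 0.943 to 1.02 in the 3 pools at 37 °C. In the 752-guide pools the same guides were at 0.802 with 15 cycles and 0.755 with 1 cycle. The 48 that melted highest were at 0.878 in the Q5 pool at 70 °C and 1.19 in the 752-guide pool with 1 cycle. Single guides did not follow the trend closely. Guide 115, which melts at 39.8 °C, stood at 1.49 to 3.90 times the mean in all pools but the Q5 pool at 37 °C, where it was at 0.913. Guide 119, at 60.4 °C one of the 3 highest-melting guides, stood at 0.661 to 1.06 times the mean throughout.

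The rho with melting temperature was lower at 70 °C than at 37 °C in 3 of 3 polymerases, by 0.118 for Klenow, 0.159 for Klenow exo- and 0.198 for Q5. The mean was -0.131 ± 0.099 at 70 °C and 0.028 ± 0.061 at 37 °C (SD, n = 3 pools each), a difference of -0.158. A two-sided exact permutation test, which did not pair the pools by polymerase, gave p = 0.1, the smallest that 3 pools against 3 allow. With GC content in place of melting temperature the difference was -0.125 and p = 0.2 in the same exact test.

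Many guides of the set differed between the elution temperatures. The paper presents the 37 °C elution as a next step, so any difference between rounds of cloning cannot be told apart from temperature. In edgeR's quasi-likelihood test with the polymerase in the model, 89 guides (46.4%) differed between 70 °C and 37 °C at an adjusted p of 0.05, of which 49 (25.5%) were higher and 40 (20.8%) lower at 70 °C. Counted by sign alone, 55 guides (28.6%) were higher and 67 (34.9%) lower at 70 °C with all 3 polymerases, and 70 were mixed. The changes of the 3 polymerases, which share no library, had rho of 0.700 to 0.822 with each other over the set. The number of calls rested on the Klenow pools: 4 guides were called without the Klenow pool at 37 °C, 10 without the one at 70 °C and 5 without both, each fit having fewer residual degrees of freedom, and 57 without the Klenow exo- pool at 70 °C. Without the polymerase term 5 guides were called, all lower.

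Of the 6 named guides that fell at 70 °C, 5 had 6 to 8 cytosines, against a median of 4 over the set, and guide 161, which fell most, had 4. Guide 3, with 6 cytosines, had 2506, 1478 and 1590 reads at 37 °C in the order Klenow, Klenow exo- and Q5, and 722, 302 and 1345 at 70 °C. As relative abundance that was 0.786 to 1.04 against 0.161 to 0.360, a fall by 1.83 on the log2 scale (edgeR's quasi-likelihood test, adjusted p = 8.38e-06). The guide was named for the size of this fall, so the gap between the ranges adds nothing to the call. Guide 3 was past the threshold in every alternative fit. Guides 79, 4, 58 and 148, with 7 or 8 cytosines each, fell by 1.52, 1.48, 1.48 and 1.47, with a largest adjusted p of 4.16e-05 in the same test. Guides 79 and 148 lost the call in 3 of 13 alternatives each, and guides 4 and 58 in 1. Guide 58 had 2799, 2229 and 1740 reads at 37 °C and 701, 824 and 1978 at 70 °C, or 1.02 to 1.18 against 0.349 to 0.439 times the mean. In the 752-guide pools guides 3, 58 and 4 were at 0.992 to 1.13 times the mean, at or near their 37 °C levels. Guide 161 fell by 4.41 with an adjusted p of 7.69e-05, in edgeR's fit, on counts of 0 to 26 at 70 °C, and lost the call in 6 of 12 alternatives.

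Of the 6 named guides that rose at 70 °C, 4 had 1 cytosine, guide 170 had 3 and guide 85, which rose most, had 4. Guide 115, with 1, had 5435, 4285 and 1555 reads at 37 °C in the order Klenow, Klenow exo- and Q5, and 7832, 6738 and 8077 at 70 °C. It rose by 0.79 on the log2 scale (edgeR's quasi-likelihood test, adjusted p = 5.66e-07). Within each polymerase its relative abundance was higher at 70 °C (3.90 against 2.26, 3.59 against 2.28 and 1.49 against 0.913), although the Q5 pool at 70 °C lay below the Klenow pools at 37 °C. Guides 34, 181 and 165, also with 1 cytosine each, rose by 0.77, 0.77 and 0.76, and guide 170, with 3, by 0.79, with a largest adjusted p of 3.26e-04 among the 4. Guide 34 had 1147, 820 and 2164 reads at 37 °C and 1425, 1454 and 11049 at 70 °C, while it was at 0.377 and 0.310 times the mean in the 752-guide pools. Guide 85 rose by 1.25 (adjusted p = 0.0364 in edgeR's fit), mostly on the 369 reads of the Q5 pool at 70 °C, and without that pool the value was 0.66 with an adjusted p of 0.294. Over its 12 alternatives the adjusted p of guide 85 was 0.0225 to 0.539, from DESeq2 to edgeR without the polymerase term. Guides 34, 181 and 165 lost the call in 4 of 13 alternatives each and guides 115 and 170 in 1.

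Over the whole set the number of cytosines ran with the change between temperatures more closely than melting temperature did. Its rho with the log2 change was -0.363 for Klenow, -0.411 for Klenow exo- and -0.387 for Q5, against -0.157, -0.266 and -0.354 for melting temperature. Guanine, the other base that raises melting temperature, went the other way, with rho of 0.278, 0.233 and 0.086. Of the 61 guides with 3 or fewer cytosines, 30 were called higher and 1 lower at 70 °C, and their median log2 change was 0.28, 0.26 and 0.26 with the 3 polymerases. Of the 72 guides with 4 or 5 cytosines, 12 were called higher and 22 lower, with medians of -0.27, -0.19 and -0.19. The 59 guides with 6 or more gave 7 higher and 17 lower, with medians of -0.16, -0.23 and -0.17, so the step lay between the first class and the other 2. The classes were drawn after the values had been seen and carry no test.

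Between 15 and 1 cycles in the 752-guide pools the set changed little. The log2 ratio of relative abundance had an SD of 0.383 over the set, or 0.355 without the 2 guides with a BlpI site, with 90 guides higher and 102 lower with 15 cycles. There is 1 pool for each number of cycles and so no test. Only 4 guides (2.08%) differed by more than 2-fold. Guide 120 had 403 reads with 15 cycles and 39 with 1, guide 92 had 260 and 66, and guide 47 had 211 and 61. Guide 85 went the other way with 5 and 18 reads. Guides 120, 92 and 47 were in this way among the 6 lowest of the set with 1 cycle, whereas in the Klenow pools at 37 °C they ranked 100 or higher. They were named after their values had been seen.

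The log2 ratio of 15 to 1 cycles had a rho of -0.293 with melting temperature over the set. It had -0.339 with the number of cytosines, 0.336 with the number of thymines and -0.333 with the GC content of the first 9 bases. With the GC content of the last 9 bases it was 0.002. The first and last bases differed in the levels themselves too, since the count with 15 cycles had a rho of 0.020 with the GC content of the first 9 bases and 0.353 with that of the last 9. With 1 cycle the values were 0.156 and 0.306. In the 4 Klenow pools the rho with the GC content of the first 9 bases was -0.190 to -0.107, and with that of the last 9 it was 0.029 to 0.107. Predicted folding of the guide had a rho of no more than 0.090 in size with the count in any pool, and the longest run of 1 base no more than 0.136.

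Set against the 560 other guides of the 752-guide pools, the set was less abundant. Their median was 261 reads against 401 with 15 cycles and 213.5 against 400.5 with 1 cycle, and 122 (63.5%) and 153 (79.7%) of them lay below the lower quartile of the others. The other guides are CRISPRi and CRISPRa library sequences by their names and melt higher, at 55.7 ± 5.28 °C (SD) against 48.9 ± 4.58 °C. Within bands of melting temperature the gap persisted. In all 4 bands of 5 °C with 10 or more guides on each side, from 40 to 60 °C, the median of the set was the lower, at 0.539 to 0.907 times that of the others with 15 cycles and 0.382 to 0.783 times with 1. From 40 to 45 °C the medians with 1 cycle were 158 reads for 29 guides of the set and 414 for 12 others. Bands of GC content gave 0.636 to 0.854 and 0.429 to 0.746. Among the others the rho of count with melting temperature was 0.197 with 15 cycles and 0.156 with 1, against 0.295 and 0.380 in the set, and the difference was not tested.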

How the data were processed

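For each of the 8 plasmid pools the deposited file gives raw read counts per guide, which the authors had neither normalized nor pooled. The set holds 192 guides. FASTQ files were made with bcl2fastq per the submitters' processing notes, which name hg19. Its version and the counter used for these pools are unstated: not given in the sources used here. A counter that allows no mismatch would miss copies with synthesis errors, which was not tested. The 44 other samples of the series were not used.

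Members and lists were chosen with earlier results of these data known. Named guides are up to 12 low and 12 high in every pool, up to 6 in each direction of largest fitted change between temperatures among those past an adjusted p of 0.05 with the same sign in 3 of 3 polymerases, up to 4 in each direction for Q5 against Klenow, the 4 of widest rank range, guides at 0, the 2 just inside and outside each rule, and the 3 of lowest and highest melting temperature.

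Analyses used Python 3.11.15 (pandas 2.3.3, scipy 1.17.1, Biopython 1.88), RNAfold 2.7.2 and R 4.3.3 (edgeR 4.0.16, DESeq2 1.42.0). Melting temperatures are Biopython's nearest-neighbour values with default salt. The 33-bp insert and the search for sites used the flanking bases of the study's protocol. Counts of the 6 pools of 192 guides were fitted with edgeR's quasi-likelihood test, TMM scaling, and polymerase and temperature as additive terms, with Benjamini-Hochberg adjustment over all 192 guides. The steps were tested on simulated data. Log2 values carry a pseudocount of 1. Totals were 288327 to 1043018 reads a pool, and a count of 0 allows 3 reads at the 95% level. Alternatives were other limits for low and high, thinning to 44606 reads, other melting temperature models, GC content, other fits, and leaving out each pool. Base counts, the search for restriction sites, values without the guides that hold one, agreement between pools and 2-fold changes with PCR cycles were added after the data had been seen.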

Additional observations from a re-analysis of the deposited data

Results flagged for a closer look

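The relation of count with melting temperature over the set had opposite signs in the 752-guide pools and in the small pools eluted at 70 °C. The Spearman rho was 0.295 with 15 cycles and 0.380 with 1 cycle in the 752-guide pools, both above 0. In the small pools eluted at 70 °C it was -0.046 for Klenow, -0.105 for Klenow exo- and -0.240 for Q5, all below 0. The difference between these pools was not tested. The small pools eluted at 37 °C lay between, at 0.072 for Klenow, 0.053 for Klenow exo- and -0.042 for Q5. The Klenow value at 70 °C was as near 0 as these. Of the small pools at 70 °C, only Q5 lay further from 0 than 0.143, the width within which a rho was counted as unmoved. The negative sign at 70 °C thus rests mainly on that 1 pool. The elution temperature of the 752-guide pools is not given by their labels. The paper gives the lower temperature for its larger pilot library, without plainly tying it to either of these pools. If it holds for them, the comparison at like temperature is with the small pools eluted at 37 °C.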

How the results depend on the processing

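The number of guides low in every pool was 9 when the lowest 64 were taken and 2 with under 0.5 times the median. The number high in every pool was 9 with the highest 64 and 2 with over 1.5 times the median. Leaving out 1 pool gave 4 to 7 low and 4 to 10 high guides. With 64 guides, 9 of 9 low and 9 of 12 high in the small pools were so in all 8. For 70 °C against 37 °C, edgeR without TMM called 30 guides higher and 45 lower, whereas the main fit called 49 higher and 40 lower. Which direction had more calls thus depended on the scaling. Without the polymerase term edgeR called 0 higher and 5 lower, 5 in all. At an unadjusted p the main fit had 101 guides under 0.05, and DESeq2 called 108. Leaving out 1 pool or 1 polymerase gave 4 to 94 calls, 2 to 44 higher and 2 to 50 lower, with the low values without Klenow pools. For Q5 against Klenow, the fit without the temperature term called 40 guides, 27 higher and 13 lower, and leaving out 1 pool gave 80 to 122 calls, 41 to 60 higher and 39 to 62 lower. The rho with melting temperature stayed within 0.143 of its value in every pool under 7 alternatives, although Pearson's r on log2 was -0.027 and -0.019 in the Klenow and Klenow exo- pools at 37 °C and the sign of the difference between 10 guides at each end turned in 4 small pools, and the difference in rho between temperatures was -0.178 to -0.138 when 1 polymerase was left out. For the named guides, 193 of 233 refits kept direction and call and 40 kept direction but lost the call, 11 of them for guide 85. No paired analysis was possible by replicate, because the labels give these pools no replicate numbers. The pools eluted at 70 °C and at 37 °C were paired by polymerase in the fit for temperature, which held the polymerase as a term. The exact permutation test on rho did not use that pairing. Depth limits the 752-guide pools most, where a guide of the set had a median of 261 or 213.5 reads. Targets of the guides were not analysed here.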
